A study of Homo sapiens with 4 samples.

Results

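Keratins are the intermediate filament proteins of epithelial cells, and their genes were examined here for 3 histone marks in the mammary epithelial line MCF10A. Members were the protein-coding genes whose symbol is KRT followed by a number and at most one letter from A to C, in the human assembly GRCh38. That rule took 55 of the 19974 protein-coding genes on chromosomes 1 to 22 and X. All 55 lay in 2 clusters, with 27 on chromosome 12 and 28 on chromosome 17. The genes of keratin-associated proteins, whose symbols begin with KRTAP, are a different class and were used for comparison.

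MCF10A is an established, immortalised line of human breast epithelium that does not form tumours and has basal features. Cells were cultured in MEGM with 100 ng/ml cholera toxin, and chromatin was immunoprecipitated with 1 antibody per library against H3K4me3, H3K27me3 or H3K79me2. The labels describe 4 libraries, all from this line and with no contrast of genotype or treatment. Peak lists of 3 libraries were used, and the input DNA is not analysed here. Each mark had 1 library without replicates, so no value below has a replicate check or an error, no test was made, and the read depth is unknown.

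A keratin filament is built from pairs of 1 type I and 1 type II protein, and epithelia differ in the pairs they make. Simple epithelia such as glandular luminal cells make KRT8 with KRT18, the basal cells of stratified and glandular epithelia make KRT5 with KRT14, and suprabasal epidermis makes KRT1 with KRT10. Injured epidermis switches on KRT6 paralogs with KRT16 and KRT17, while a large set of keratins is made mainly in the hair follicle. The type II genes and the type I gene KRT18 lie together on chromosome 12, and the other type I genes lie on chromosome 17. H3K4me3 is found at active and poised promoters, H3K79me2 over the first part of transcribed genes, and H3K27me3 is the mark of Polycomb repression.

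Promoter sequences from RefSeq (GRCh38.p14; 250 bases before to 50 after the annotated start) were matched for 34 of the 55 keratin genes. The following are shown because the marks at them differ most: the basal gene KRT5 inside a wide H3K4me3 peak, its neighbour KRT71 with no peak, the epidermal gene KRT10 and the antisense RNA gene KRT10-AS1 that starts inside it, and the hair follicle genes KRT26 and KRT28 with H3K27me3. Each is written 5′ to 3′ along the gene's own strand, and capitals mark CG dinucleotides.
KRT5 (chr12:52520345-52520644, minus strand): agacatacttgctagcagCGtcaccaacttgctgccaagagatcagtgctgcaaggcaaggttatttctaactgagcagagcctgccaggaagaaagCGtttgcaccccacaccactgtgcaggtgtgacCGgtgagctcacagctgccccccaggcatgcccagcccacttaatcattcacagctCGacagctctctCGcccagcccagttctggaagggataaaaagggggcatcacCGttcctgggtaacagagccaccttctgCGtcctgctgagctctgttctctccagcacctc
KRT71 (chr12:52553096-52553395, minus strand): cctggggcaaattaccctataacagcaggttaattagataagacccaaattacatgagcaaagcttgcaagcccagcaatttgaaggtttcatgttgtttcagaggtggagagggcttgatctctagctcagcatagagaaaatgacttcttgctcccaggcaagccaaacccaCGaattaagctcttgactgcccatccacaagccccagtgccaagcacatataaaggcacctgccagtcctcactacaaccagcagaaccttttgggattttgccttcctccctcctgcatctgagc
KRT10 (chr17:40822565-40822864, minus strand): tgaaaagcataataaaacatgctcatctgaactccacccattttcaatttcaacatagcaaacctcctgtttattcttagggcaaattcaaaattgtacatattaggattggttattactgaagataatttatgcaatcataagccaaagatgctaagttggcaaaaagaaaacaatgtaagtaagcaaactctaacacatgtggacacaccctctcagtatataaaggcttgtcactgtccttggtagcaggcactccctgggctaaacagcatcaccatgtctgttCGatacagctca
KRT10-AS1 (chr17:40818895-40819194, plus strand): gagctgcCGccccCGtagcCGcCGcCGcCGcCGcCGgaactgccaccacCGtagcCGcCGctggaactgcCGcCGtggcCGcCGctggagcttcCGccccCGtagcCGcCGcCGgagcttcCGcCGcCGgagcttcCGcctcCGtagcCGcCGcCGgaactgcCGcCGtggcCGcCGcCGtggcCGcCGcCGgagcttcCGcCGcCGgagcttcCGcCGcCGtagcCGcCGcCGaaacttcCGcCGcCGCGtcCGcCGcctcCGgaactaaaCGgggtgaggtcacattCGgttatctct
KRT26 (chr17:40772152-40772451, minus strand): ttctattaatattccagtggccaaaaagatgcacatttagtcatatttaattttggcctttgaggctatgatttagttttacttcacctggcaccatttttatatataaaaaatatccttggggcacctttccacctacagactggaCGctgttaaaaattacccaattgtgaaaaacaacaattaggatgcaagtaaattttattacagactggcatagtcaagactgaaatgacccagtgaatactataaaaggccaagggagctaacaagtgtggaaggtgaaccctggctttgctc
KRT28 (chr17:40799910-40800209, minus strand): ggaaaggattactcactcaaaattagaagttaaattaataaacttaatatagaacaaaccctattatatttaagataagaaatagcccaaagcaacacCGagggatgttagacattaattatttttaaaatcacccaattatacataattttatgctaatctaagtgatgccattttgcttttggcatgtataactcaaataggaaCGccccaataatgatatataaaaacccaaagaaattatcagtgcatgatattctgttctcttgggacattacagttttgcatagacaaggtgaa

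The KRT5 sequence holds 7 CG dinucleotides, and H3K4me3 and H3K79me2 peaks covered 100% of it. The KRT71 sequence holds 1, and peaks of all 3 marks covered 0.0% of it. KRT10 also holds 1, and H3K4me3 covered 0.0% of this sequence while H3K79me2 covered 100%. The sequence at the first of the 2 annotated starts of KRT10-AS1 holds 54 and lay wholly within an H3K4me3 peak. H3K27me3 covered 93.3% of the KRT26 sequence, which holds 1 CG dinucleotide, and 79% of the KRT28 sequence, which holds 2. Thus the KRT5 start and the KRT10 start, both in genes called for H3K4me3, differ in whether that mark lies on the start itself.

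The keratin promoters with a sequence, 38 in all because some genes have more than one, were poor in CG dinucleotides. They belong to 34 genes, of which 5 were called for H3K4me3, against 18 called among all keratin genes. Most keratin genes called for H3K4me3 are therefore missing from the values of this paragraph. The median was 2 per sequence, with a range of 0 to 8, against a median of 21 over 22132 promoters of 15812 protein-coding genes. Of the 38 keratin promoters, 0 held at least 10 CG dinucleotides, which 70.1% of all promoters did. Median GC content was 45.7% in the keratin promoters and 62.3% in all. Motifs were searched as exact letters on both strands anywhere in the 300 bases, without regard to overlap between motifs. The TATA box core TATAAA was found in 21 of 38 keratin promoters (55.3%) and in 9.46% of all promoters. The GC box GGGCGG was found in 6 (15.8%) against 56.3%, and the CCAAT box CCAAT in 18 (47.4%) against 34.6%. TGANTCA, the consensus of AP-1 factors, was found in 0 of 38 against 6.15%. A match describes the letters and is not evidence of a bound factor. The promoters with 7 or 8 CG dinucleotides were those of KRT85, KRT75, KRT5, KRT79, KRT40 and KRT9, and of these KRT5 alone was called for H3K4me3.

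**Figure D1:**
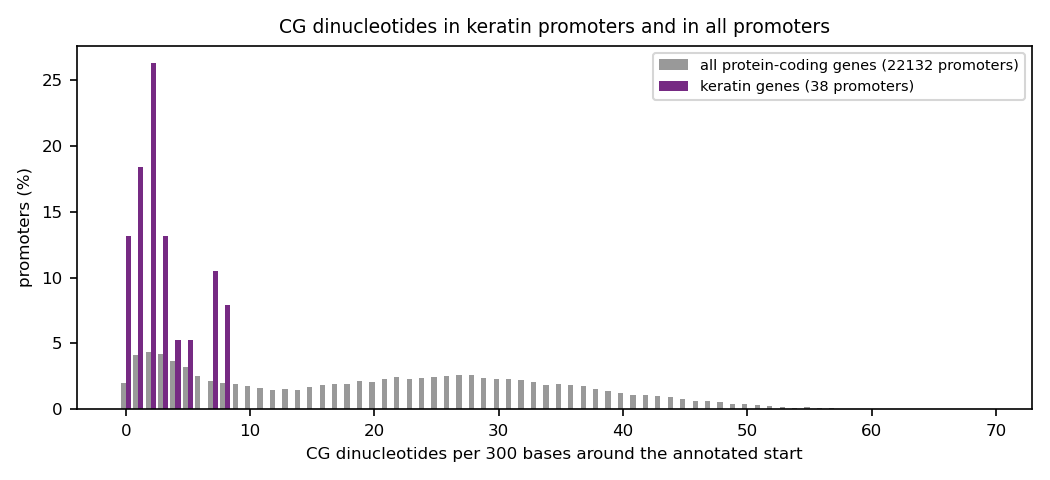
Share of promoters (vertical axis, percent) by the number of CG dinucleotides in the 300 bases around the annotated start (horizontal axis), for 38 keratin promoters in purple and 22132 promoters of protein-coding genes in grey. The keratin promoters end at 8, while the grey bars spread up to 69.

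For H3K4me3 and H3K27me3, a call meant that 25% or more of the bases within 1000 bp of one end of the gene record lay under peaks. H3K79me2 is a wider mark, and there the 25% refers to the 5000 bp reaching into the record from one end, or to a shorter record as a whole. The fold given with a peak is the authors' own enrichment value for that peak and is compared only within its list.

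H3K4me3 marked 18 of the 55 keratin genes (32.7%), where 67.9% of all protein-coding genes were called. H3K79me2 marked 10 (18.2%), where 50.9% of all were called. H3K27me3 marked 5 (9.09%), close to the 9.1% of all genes. Every keratin gene called for H3K79me2 was also called for H3K4me3, and the combination was held by 10 keratin genes (18.2%) and 48.9% of all genes. This overlap was general: of the 10165 genes called for H3K79me2 in the genome, 302 had that mark alone and 6 had it with H3K27me3 only. At KRT86 the H3K4me3 call and the H3K79me2 call came from opposite ends of the record. H3K4me3 without either of the others was held by 8 keratin genes (14.5%) and 14.6% of all. H3K27me3 alone was held by 5 (9.09%) against 4.74%, and 32 keratin genes (58.2%) had no call against 25.9%. The combination of H3K4me3 and H3K27me3 was found at 0 keratin genes and at 773 of all genes (3.87%).

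Counts fell under stricter peak thresholds. With peaks of q at most 0.05, H3K4me3 was called at 16 keratin genes against 66.3% of all genes, H3K27me3 at 3 against 5.52%, and H3K79me2 at 8 against 43.3%. The genes lost were KRT24 and KRT37 for H3K4me3, KRT2 and KRT28 for H3K27me3, and KRT81 and KRT86 for H3K79me2. With −log10 q of at least 5, H3K4me3 was called at 13 against 63.7%, H3K27me3 at 1 against 1.21%, and H3K79me2 at 0 against 12.6%. At this last threshold KRT86, KRT15 and KRT16 were lost as well for H3K4me3, and KRT26 was the one gene left for H3K27me3.

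**Figure D2:**
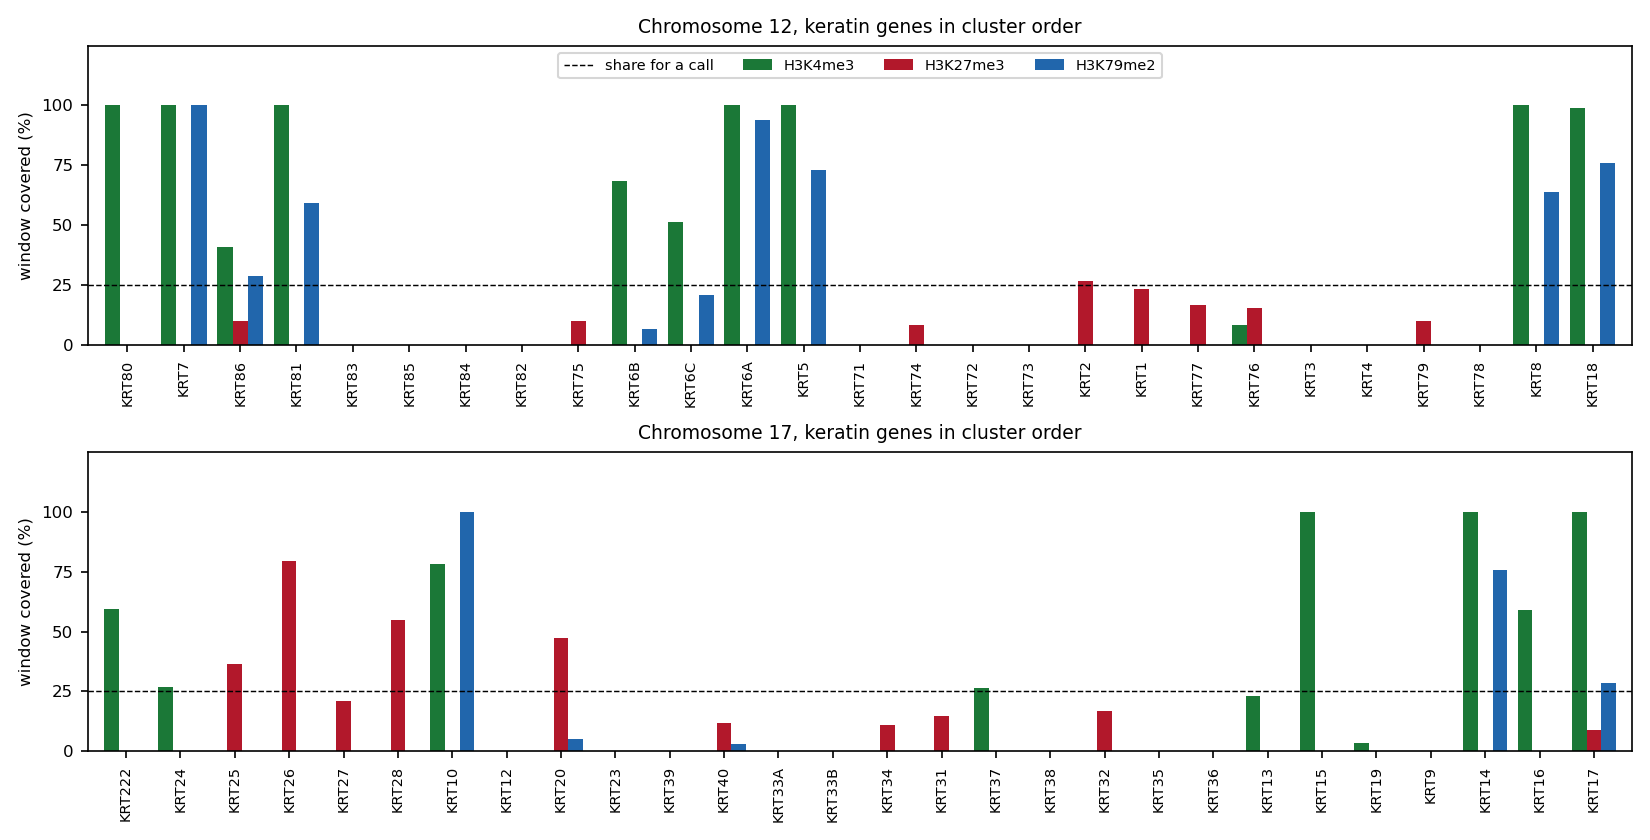
Share of the window covered by peaks (vertical axis, percent; the higher of the ends) for each keratin gene in the order of its cluster, with 1 bar per mark and a dashed line at the 25% that makes a call. H3K4me3 and H3K79me2 stand together at KRT7, KRT6A, KRT5, KRT8, KRT18, KRT10 and KRT14, while H3K27me3 bars stand elsewhere and mostly under the line.

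Among the keratins of simple epithelia, which line glands and ducts, H3K4me3 and H3K79me2 were both called at KRT7, KRT8 and KRT18. That is 3 of 5 for each mark, where 67.9% of all genes were called for H3K4me3 and 50.9% for H3K79me2. KRT7, a luminal and glandular keratin, had an H3K4me3 peak of 10059 bp and 14.1-fold that began 3086 bp before its record and covered 30.8% of it, and an H3K79me2 peak of 7410 bp and 3.39-fold. KRT8 and KRT18, the partners of simple epithelia, lie side by side and share an H3K4me3 peak of 4781 bp and 16.5-fold and an H3K79me2 peak of 4140 bp and 3.16-fold. KRT18 had 93.9% of its short record under H3K4me3, so the shared peak sits on KRT18 and on the last bases of the KRT8 record. A second H3K4me3 peak lay inside the KRT8 record at chr12:52902288-52905429 and was the highest of both clusters, with 20.7-fold over 3142 bp. An H3K79me2 peak of 3091 bp and 2.65-fold overlapped it, and H3K79me2 covered 30.7% of the window at the nearer end of the KRT8 record. The annotated start of KRT8 in the promoter table lay outside both of these H3K4me3 peaks, 1008 bp from the nearest H3K4me3 peak, which had 2.17-fold. KRT8 is on the minus strand and its record goes on upstream of that start to the peak shared with KRT18, so a start that the table does not hold was not examined. KRT19, another simple keratin and the partner of KRT8 in ducts, was not called: H3K4me3 covered 3.35% of its better window, and no H3K27me3 or H3K79me2 peak lay within 5000 bp of its record. KRT20, a keratin of intestinal and urothelial cells, was the one gene of this group with H3K27me3, over 47.3% of the window with 3.80-fold.

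All 3 basal layer keratins were called for H3K4me3 (67.9% of all genes) and 0 for H3K27me3 (9.1% of all genes). KRT5, the type II keratin of basal cells, lay under the widest H3K4me3 peak of both clusters, 11440 bp and 11.7-fold, which covered 100% of the record and ran 5397 bp past its start. Of all peaks in that list, 0.201% were at least as wide. KRT5 also had the highest H3K79me2 fold among the called keratins, 3.90 over 4251 bp. KRT14, its type I partner, had an H3K4me3 peak of 6633 bp and 7.05-fold, and its H3K79me2 peak of 3979 bp and 2.87-fold covered 75.8% of the record. KRT15, a further type I keratin of basal cells, differed from both: its H3K4me3 peak was wide at 5179 bp but low at 3.08-fold, and no H3K79me2 peak lay within 5000 bp. The KRT15 peak ran 3793 bp past the record towards KRT19.

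All 5 keratins of injured, hyperproliferative or nail epidermis were called for H3K4me3, 2 for H3K79me2 and 0 for H3K27me3. The same shares over all genes were 67.9%, 50.9% and 9.1%. The 3 KRT6 paralogs are neighbours on chromosome 12 with different peaks. KRT6A had 8902 bp and 11-fold of H3K4me3, reaching 3772 bp past its record. KRT6B had 3017 bp and 6.67-fold, and KRT6C had 2689 bp and 7.11-fold. H3K79me2 covered 94.1% of the KRT6A window with 3.26-fold, and 20.7% of that of KRT6C with 2.28-fold, under the share for a call. On chromosome 17, KRT17, the partner induced on injury and also made by basal-like cells, had an H3K4me3 peak of 7329 bp and 12.4-fold over its whole record. Its H3K79me2 peak was short, at 1421 bp and 2.97-fold over 28.4% of the window. KRT16 had a lower H3K4me3 peak, of 1941 bp and 3.22-fold, and no H3K79me2 peak within 5000 bp. KRT6A, KRT6B and KRT6C, like KRT14, KRT16 and KRT17, are near-identical copies in part of their sequence, and the handling of reads that match several places was not given in the sources used here. Peak heights at these genes and at KRT81, KRT83 and KRT86 or KRT33A and KRT33B are therefore uncertain.

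Of the 12 keratins of differentiating stratified epithelia, 1 was called for H3K4me3 and H3K79me2, KRT10, and 1 for H3K27me3, KRT2. Over all genes, 67.9% were called for H3K4me3, 50.9% for H3K79me2 and 9.1% for H3K27me3. KRT10 is the type I keratin of suprabasal epidermis, and its H3K4me3 peak at chr17:40817549-40821256 had 3708 bp and 18.2-fold. That peak covered the end of the record opposite to its annotated start and stopped 1358 bp from the start, which lies at base 40822614 on the minus strand. The peak held both annotated starts of KRT10-AS1, at 40819145 and 40819185 on the plus strand. H3K79me2 covered the whole KRT10 record in a peak of 11731 bp and 2.93-fold, which is the widest H3K79me2 peak between the first and the last keratin gene of that cluster. KRT1, the type II partner of KRT10, had no H3K4me3 or H3K79me2 peak within 5000 bp, and H3K27me3 covered 23.3% of its window with 3.46-fold, just under the share for a call. KRT2, made late in epidermal differentiation, stood just above that share with 26.5% and 3.08-fold, at the end away from its start. KRT13, a keratin of internal stratified epithelia such as the oral mucosa, had H3K4me3 over 23.3% of its window with 2.62-fold, and KRT4, its type II partner, had none within 5000 bp. The remaining genes of the group were KRT3, KRT9, KRT12, KRT76, KRT77, KRT78 and KRT79, and 0 of these were called for any mark.

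Of the other 4 epithelial keratins, KRT80, KRT222 and KRT24 were called for H3K4me3 (67.9% of all genes). For H3K79me2 (50.9% of all genes) and H3K27me3 (9.1%), 0 were called. KRT80 had a peak of 3830 bp and 4.75-fold over 100% of its window, and KRT222 a peak of 1186 bp and 4.47-fold over 59.3%. The peak at KRT24 had 991 bp and 2.40-fold over 26.9% and lay wholly outside the record, at the end away from its start. KRT23 had no call. So KRT80 and KRT222 carried H3K4me3 with lower fold than KRT5, KRT7, KRT8 or KRT18, and without H3K79me2.

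Of the 9 keratins of the inner root sheath and companion layer, which mould the growing hair, 0 were called for H3K4me3 or H3K79me2. For H3K27me3, 3 were called. The same shares over all genes were 67.9% for H3K4me3, 50.9% for H3K79me2 and 9.1% for H3K27me3. The 3 were KRT25, KRT26 and KRT28, which with KRT27 form one run on chromosome 17. KRT26 had the highest H3K27me3 share and fold of the keratins: 79.6% of the window, with 6.08-fold in a peak of 1927 bp at chr17:40772567-40774493. Of all H3K27me3 peaks, 0.141% were at least as wide and 0.246% at least as high. KRT28 had 55.0% and 2.94-fold, and KRT25 had 36.4% and 3.22-fold at the end away from its start. KRT27 had 20.9% and 3.08-fold without a call, also at the end away from its start. All 9 genes of the group had H3K27me3 peaks within 5000 bp, where 65.1% of all genes had them. So did 11 of 12 differentiating keratins, 14 of 17 hair shaft keratins and 76 of 94 keratin-associated protein genes. Fewer did among simple (2 of 5), basal (0 of 3), injury (2 of 5) and other epithelial keratins (2 of 4). Within the inner root sheath and companion layer group, KRT74 and KRT75 alone had no such peak with q at most 0.05. Their highest −log10 q were 0.702 and 0.362. Over all 55 keratin genes, 18 had such a peak with q at most 0.05, against 26.9% of all genes. Within 5000 bp of the record, KRT25 had 14 H3K27me3 peaks, KRT26 had 9, KRT27 had 6 and KRT28 had 10. The type II inner root sheath genes KRT71, KRT72, KRT73 and KRT74 had 2, 12, 9 and 2, and the companion layer gene KRT75 had 2.

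Of the 17 hair shaft keratins, 3 were called for H3K4me3, 2 for H3K79me2 and 0 for H3K27me3. Over all genes these shares were 67.9%, 50.9% and 9.1%. KRT81, a hair cortex keratin, had an H3K4me3 peak of 4969 bp and 18.3-fold over 100% of its window, the highest fold at any called keratin end. The KRT86 record spans that of KRT81, and the same peak lies inside it. The call at KRT86, another hair cortex keratin, came instead from a peak of 819 bp and 3.36-fold at its other end. H3K79me2 was weak at both, with 2.48-fold over 59.2% at KRT81 and 2.06-fold over 28.8% at KRT86. At KRT86 the H3K79me2 call lay at the end of the record opposite to its H3K4me3 call. KRT37 had an H3K4me3 peak of 529 bp and 1.9-fold, outside the record and at the end away from its start. The 14 without a call were KRT31, KRT32, KRT33A, KRT33B, KRT34, KRT35, KRT36, KRT38, KRT39, KRT40, KRT82, KRT83, KRT84 and KRT85. KRT36 had no peak of any mark within 5000 bp.

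**Figure D3:**
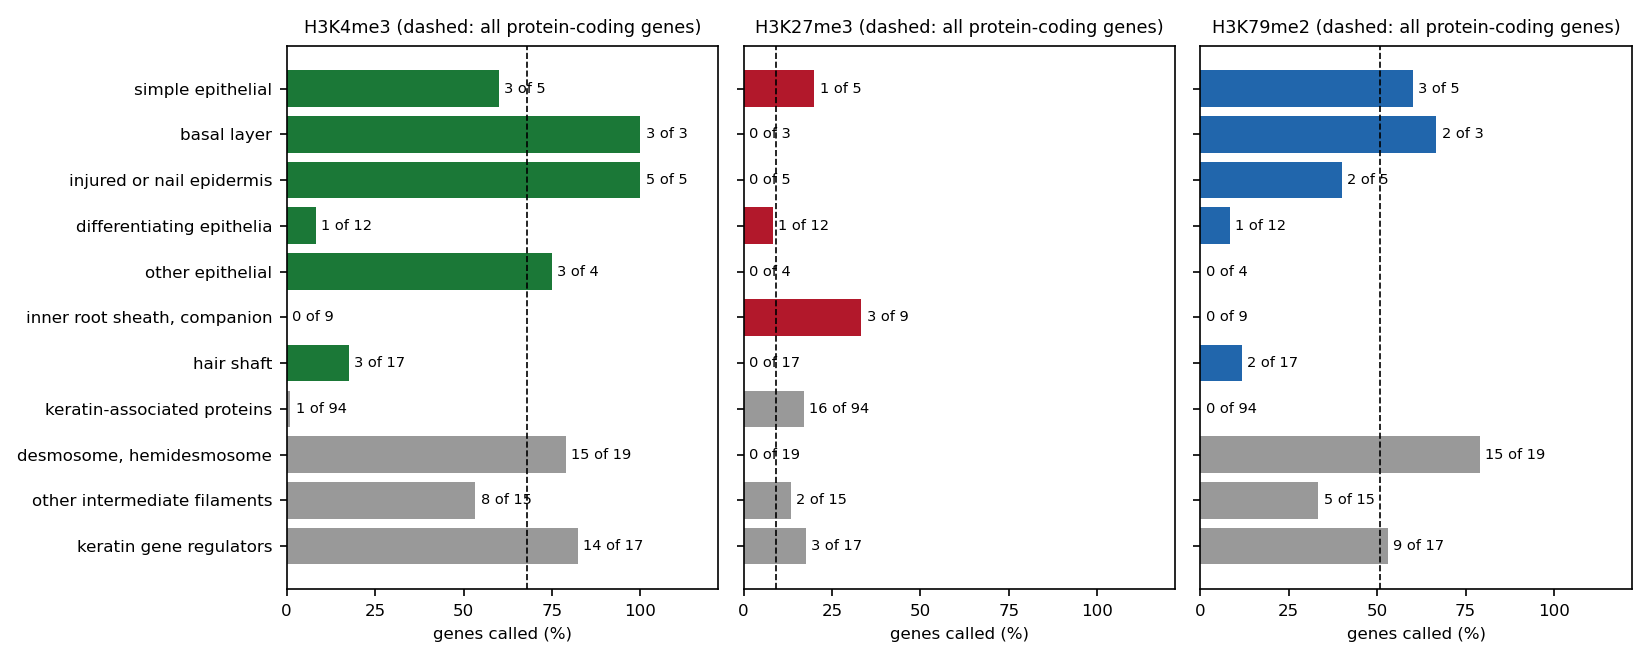
Share of genes called for each mark (horizontal axis, percent) in 7 groups of keratin genes (coloured bars) and 4 partner lists (grey bars), with the number called of the number in the list beside each bar and the share of all protein-coding genes as a dashed line. Basal and injury keratins reach 100% for H3K4me3, the inner root sheath group stands at 0.0%, and that group has the highest H3K27me3 share.

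At the annotated start itself, keratin genes were seldom marked by H3K4me3. Of the 34 genes with a promoter sequence, 5 were called for H3K4me3 at either end, and KRT5 alone was called when only the start was examined, where 70.7% of 15812 genes were called. KRT10, KRT24 and KRT37 had their H3K4me3 at the other end, and KRT8 had it at the upstream end of its record, shared with KRT18, and inside the record. H3K79me2 was called at the start of KRT5 and KRT10, 2 of 34 against 54.9%. H3K27me3 was called at the start of KRT26, KRT28, KRT20 and KRT40, 4 of 34 against 7.46%. KRT2 and KRT25 had their H3K27me3 call at the end away from the start, with 3.3% and 8.25% covered within 1000 bp of the start. The marked start of KRT40, 1 of 4 in the table, lies inside the record, so the gene is not among those called at an end. KRT7, KRT18, KRT14, KRT17 and the KRT6 paralogs are among the 21 genes not examined in this way.

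Called keratin peaks were wide but not high for H3K4me3. Their median fold was 7.08, against 16.0 over the 13556 genes called in the genome, and 4 of the 18 were above that genome median: KRT81, KRT10, KRT8 and KRT18, the last pair through 1 shared peak. Median width was 4305.5 bp against 3457 bp. For H3K79me2, called keratins had a median fold of 3.07 against 3.46 and a median width of 4140 bp against 8845 bp, and KRT5 alone was above the genome's median fold. For H3K27me3 the median fold was 3.22 against 3.96, and KRT26 alone was above it.

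Read along chromosome 12, the marks fell into alternating runs. The cluster spans 783911 bp from KRT80 to KRT18. The first 4 genes, KRT80, KRT7, KRT86 and KRT81, were called for H3K4me3, and the next 5, from KRT83 to KRT75, were not. KRT6B, KRT6C, KRT6A and KRT5 formed a second called run, followed by 12 uncalled genes from KRT71 to KRT78 and by the final pair KRT8 and KRT18. From KRT6B to KRT5, H3K4me3 covered 28.5% of the bases, H3K79me2 13.7% and H3K27me3 0.923%. From KRT71 to KRT78, H3K4me3 covered 0.6%, H3K79me2 0.121% and H3K27me3 6.96%. Over chromosomes 1 to 22 and X the marks covered 3.29%, 10.3% and 3.58% in the same order.

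The edge between these runs lies between KRT5 and KRT71. After the wide KRT5 peak came 28903 bp without a peak of any mark, the longest such gap of that cluster, and it holds KRT71. With peaks of q at most 0.05, no H3K4me3 peak was found over 347679 bp, which hold all 12 genes from KRT71 to KRT78. With all peaks, the longest stretch of that cluster without H3K4me3 was 194767 bp and without H3K79me2 285259 bp. The longest without H3K27me3 was 97950 bp and holds KRT7 and KRT81. The stretch from KRT83 to KRT75 differed from the run after KRT5: H3K27me3 covered only 1.72% of it, and with q at most 0.05 the 121362 bp around KRT85, KRT84, KRT82 and KRT75 held no peak of any mark. The widest H3K27me3 peak of the cluster with q at most 0.05 was 987 bp with 3.46-fold and overlapped no keratin record.

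**Figure D4:**
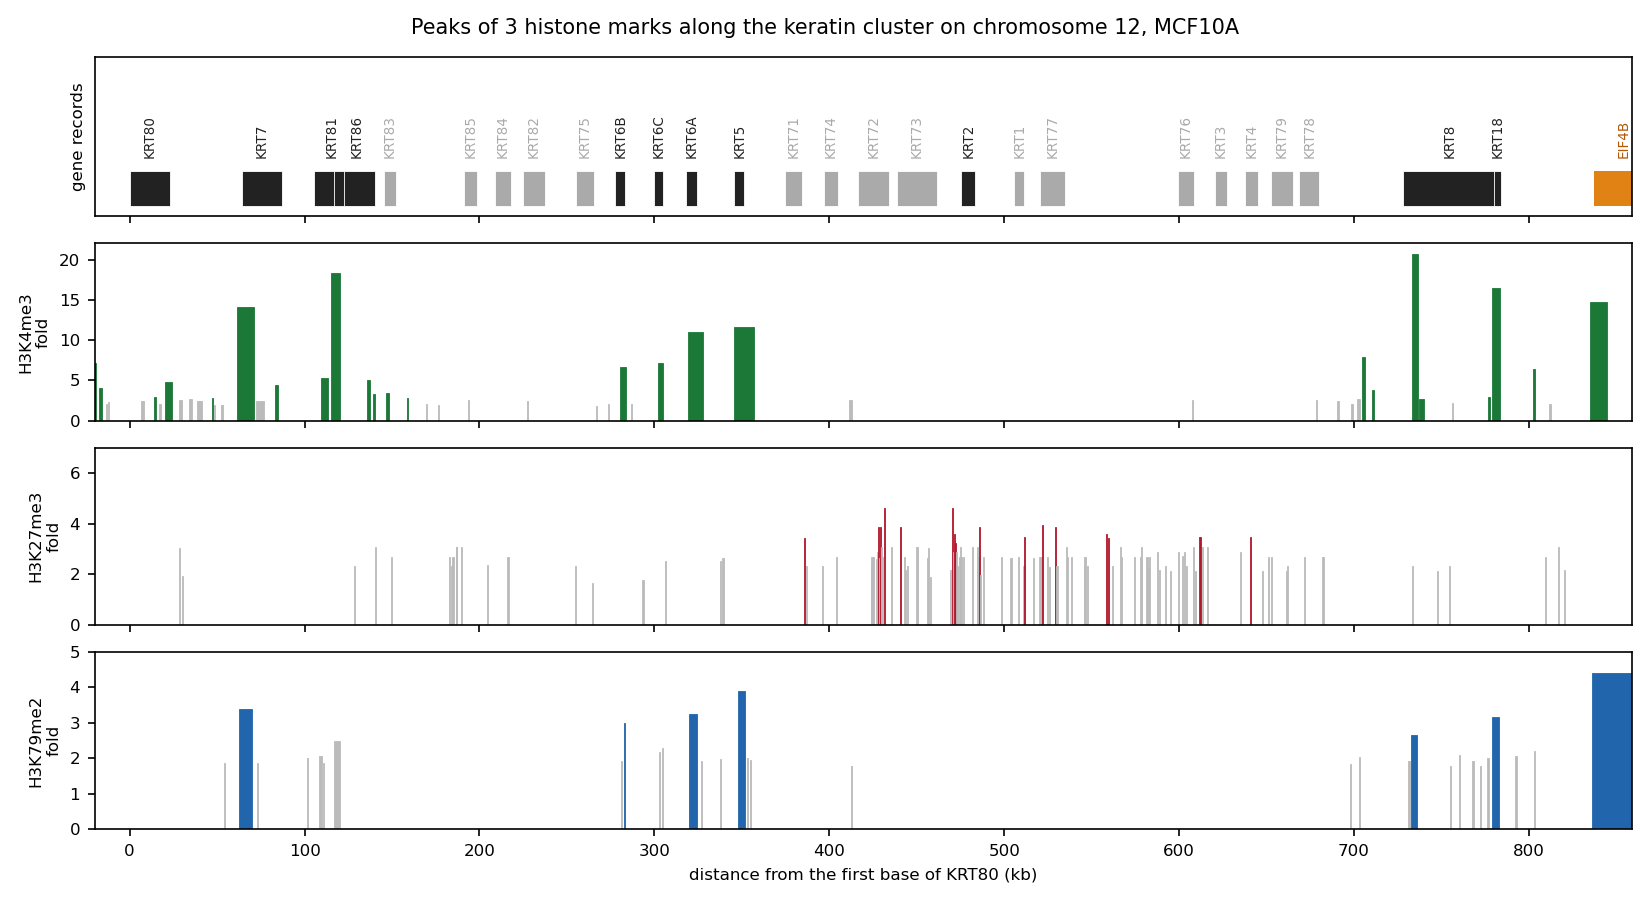
Keratin gene records on chromosome 12 (dark, with a call for any mark; light grey, none; orange, the gene next to the cluster) above the peaks of each mark, with distance from the first base of KRT80 in kb and bar height giving the authors' fold (each mark has its own scale; coloured bars have q at most 0.05, grey bars do not, and very narrow peaks are drawn wider than they are). H3K4me3 and H3K79me2 gather at KRT7, KRT81, the KRT6 paralogs with KRT5, and KRT8 with KRT18, and H3K27me3 peaks, short and low, are scattered between KRT71 and KRT78, where they cover 6.96%.

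On chromosome 17 the cluster spans 969911 bp from KRT222 to KRT17. H3K4me3 was called at 8 of its 28 genes and H3K79me2 at 3, against 10 and 7 of 27 on chromosome 12. H3K27me3 was called at 4 against 1. The covered share of the whole span was 4.49% for H3K4me3 and 8.75% for H3K27me3, where chromosome 12 had 12.3% and 3.28%. H3K4me3 thus covered more of the chromosome 12 cluster, and H3K27me3 more of the chromosome 17 cluster. The chromosome 17 span includes 322281 bp of keratin-associated protein genes between KRT40 and KRT33A, which hold no keratin gene. H3K27me3 covered 11.3% of that block and H3K4me3 0.78%, so the shares of the span are not those of keratin genes alone.

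KRT10 had uncalled H3K4me3 runs on both sides on that chromosome, as did KRT37 and KRT15 further along. Before KRT10, KRT25 to KRT28 had H3K27me3 over 19.1% of 51939 bp and H3K4me3 over 0.327%. After it came 9 genes from KRT12 to KRT31 without an H3K4me3 call. At the far end, KRT14, KRT16 and KRT17 formed the longest H3K4me3 run, with 33.2% of the bases from KRT14 to KRT17 covered by H3K4me3, 12.8% by H3K79me2 and 0.428% by H3K27me3. The hair keratins from KRT33A to KRT36 had H3K27me3 over 10.9%, H3K4me3 over 1.35% and H3K79me2 over 0.0%.

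Long stretches of this cluster lacked the active marks. No H3K79me2 peak was found over 440955 bp, which hold 13 keratin genes from KRT33A to KRT9. With q at most 0.05, no H3K4me3 peak was found over 391004 bp holding KRT23, KRT39 and KRT40, and with all peaks the longest gap was 201556 bp, with 0 keratin genes. No H3K27me3 peak was found over 68329 bp that hold KRT35, KRT36, KRT13, KRT15 and KRT19. These 5 genes include the KRT15 peak, so both the weakly marked KRT15 and unmarked neighbours lay outside H3K27me3. The longest stretch without any peak was 29811 bp and holds 0 keratin genes.

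**Figure D5:**
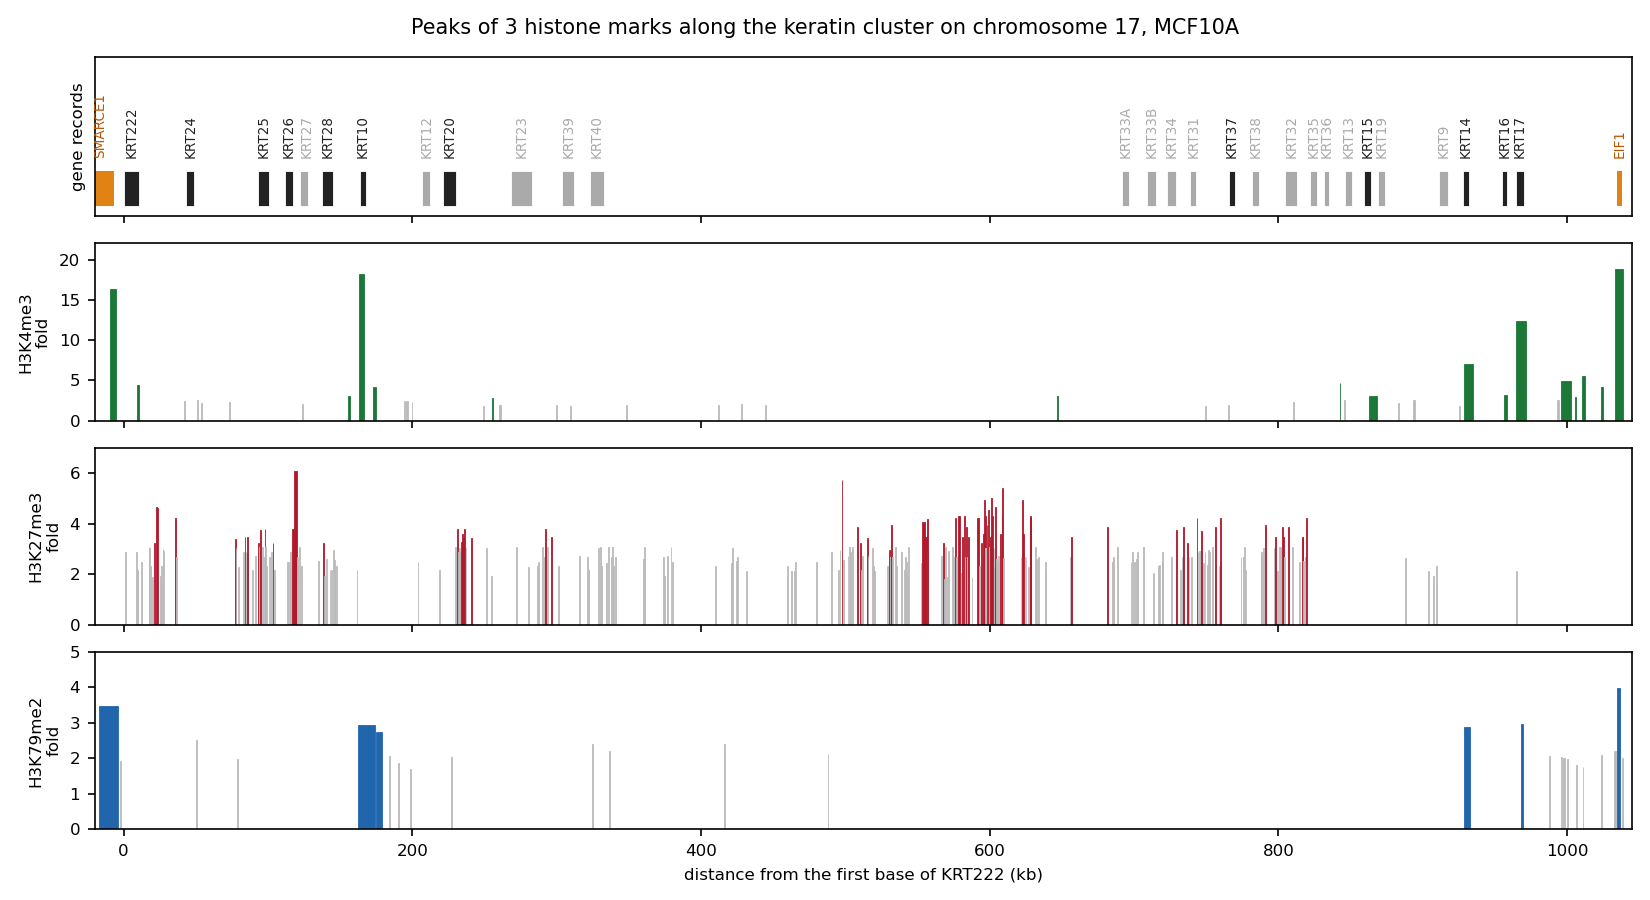
Keratin gene records on chromosome 17 (dark, with a call for any mark; light grey, none; orange, the genes next to the cluster) above the peaks of each mark, with distance from the first base of KRT222 in kb and bar height giving the authors' fold (each mark has its own scale; coloured bars have q at most 0.05, grey bars do not, and very narrow peaks are drawn wider than they are). H3K27me3 is dense around KRT26 and in the interval of keratin-associated protein genes between KRT40 and KRT33A, and H3K4me3 and H3K79me2 stand at KRT10 and from KRT14 to KRT17.

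Counting any peak in the record and 5000 bp around it gave a different order of the marks. H3K27me3 was found at 40 of 55 keratin genes, where 65.1% of all genes had it, H3K4me3 at 30 against 84.3%, and H3K79me2 at 17 against 75.6%. Most of this H3K27me3 was in short, low peaks. In the surroundings of KRT26, 9 peaks covered 4581 bp and reached 6.08-fold, and around KRT25, 14 peaks covered 4206 bp and reached 3.79-fold. KRT20 had 3867 bp in 11 peaks, KRT2 had 3856 bp in 16, and KRT27 had 3374 bp in 6. The 15 genes without H3K27me3 nearby were KRT80, KRT7, KRT81, KRT82, KRT6B, KRT6A, KRT5, KRT18, KRT24, KRT36, KRT13, KRT15, KRT19, KRT14 and KRT16. KRT6C had 174 bp and KRT17 had 181 bp.

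Of the genes next to the clusters, 3 of 4 had H3K4me3 and H3K79me2 over windows at their ends. EIF4B, a translation initiation gene 53549 bp after KRT18, had an H3K4me3 peak of 9427 bp and 14.8-fold and an H3K79me2 peak of 30679 bp and 4.42-fold. EIF1, another initiation gene 64309 bp after KRT17, had H3K4me3 at 18.9-fold, and SMARCE1, a chromatin remodelling gene 6846 bp before KRT222, had 16.4-fold with an H3K79me2 peak of 13213 bp, and also H3K27me3 over 40.9% of a window with 2.86-fold. SMIM41, before KRT80, had no H3K4me3 in its windows and H3K27me3 over 28.8% with 5.39-fold.

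The 94 keratin-associated protein genes, whose products cross-link hair keratins, were nearly free of the active marks. H3K4me3 was called at 1, KRTAP29-1, with 3.10-fold over 26.0%, and H3K79me2 at 0. H3K27me3 was called at 16 (17%), against 9.1% of all genes, and with q at most 0.05 at 7 of the 94, against 5.52% of all genes. On chromosome 17, inside the keratin cluster, 8 of 34 were called, with KRTAP9-4 at 76.0% and 4.94-fold, KRTAP9-8 at 71.4%, KRTAP9-9 at 55.3% and 5-fold, and KRTAP9-3 at 46.6%. The KRTAP9 genes are close copies of each other, and multiply matching reads limit these values in the same way. On chromosome 21, 5 of 49 were called, and on chromosome 11, 3 of 11.

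Genes that anchor keratin filaments were called for H3K4me3 at 15 of 19 (78.9%, against 67.9% of all genes), for H3K79me2 at 15 (78.9% against 50.9%) and for H3K27me3 at 0 (against 9.1%). They make up desmosomes and hemidesmosomes, the junctions to which keratin filaments attach. PKP1, DSG1, DSG4 and DSC1, genes of suprabasal or hair desmosomes in skin, were called for neither active mark at an end, although PKP1 had an H3K4me3 peak of 3.7-fold inside its record and H3K79me2 covered 4.4% of a DSC1 window. H3K4me3 covered 100% of a window at 7 of them, and the 4 with the highest fold of these were the desmocollin gene DSC2 (20.5-fold), the hemidesmosome integrin gene ITGB4 (20.4-fold), DST (18.8-fold) and DSC3 (18.5-fold). H3K79me2 covered 100% of the windows of COL17A1 (4.66-fold) and ITGB4 (3.52-fold), 97.9% at PKP2 (3.08-fold) and 97.2% at DSG3 (3.73-fold).

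Of 15 other intermediate filament genes, 8 were called for H3K4me3 (53.3%), 5 for H3K79me2 (33.3%) and 2 for H3K27me3 (13.3%), against 67.9%, 50.9% and 9.1% of all genes. The lamin genes LMNB1 (16.6-fold over 100%) and LMNA (19.8-fold over 96.9%), the lens filament gene BFSP1 (17-fold over 100%) and the vimentin gene VIM (18.3-fold over 89.6%) led for H3K4me3. H3K27me3 was called at the neuronal genes INA (49.5%, 4.23-fold) and NEFL (47.0%, 3.85-fold). H3K79me2 covered 100% of a window at LMNB2 (4.41-fold), 85.5% at LMNB1 (5.77-fold), 82.7% at VIM (3.44-fold) and 55.4% at BFSP1 (2.35-fold).

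Of 17 genes of factors that regulate keratin genes, 14 were called for H3K4me3 (82.4%), 9 for H3K79me2 (52.9%) and 3 for H3K27me3 (17.6%), beside the same shares of all genes. The AP-2 gene TFAP2A (18.1-fold), KLF4 (17.9-fold) and the hair factor gene HOXC13 (15.8-fold) had H3K4me3 over 100% of a window. H3K79me2 covered 99.4% at TFAP2C (2.52-fold), 97.5% at KLF5 (4.49-fold), 96.2% at TFAP2A (4.39-fold) and 91.7% at KLF4 (3.16-fold). TP63, GRHL2 and FOXN1 had no H3K4me3 in their windows, although in each a peak lay inside the record, with 9.53-fold, 3.66-fold and 3.23-fold. H3K27me3 was called at DLX3 (97.0%, 7.15-fold), OVOL1 (88.7%, 6.83-fold) and LEF1 (66.1%, 6.83-fold), factors of differentiating epidermis or hair. All 3 were also called for H3K4me3, with low fold at DLX3 (31.8%, 2.81-fold) and OVOL1 (54.0%, 2.34-fold) and 19.0-fold over 79.7% at LEF1. With q at most 0.05, H3K4me3 was called at 12 of the 17 genes. The combination of H3K4me3 and H3K27me3 was found at 0 keratin genes and at 3.87% of all genes.

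All 8 epithelial and basal markers of the line's labelled cell type were called for H3K4me3 and for H3K79me2, and 0 for H3K27me3. These markers include CDH1, EPCAM and ITGB4. The shares of all genes were 67.9% for H3K4me3, 50.9% for H3K79me2 and 9.1% for H3K27me3. With q at most 0.05, H3K79me2 was called at 6 of the 8. Of the immune markers 1 of 4 was called for H3K4me3 (SPI1), of the endothelial markers 0 of 4, and of the fibroblast markers 1 of 5 (COL1A1). Among the immune, endothelial and fibroblast markers, H3K79me2 was called at PECAM1, and H3K27me3 at the fibroblast genes DCN and LUM. With q at most 0.05, H3K27me3 was called at 0 of the fibroblast markers.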

How the data were processed

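The labels describe ChIP-seq of 3 histone marks and an input in MCF10A, 1 library each. The build hg38 and the tools Bowtie2 2.3.1 and MACS2 2.1.1 are named in the submitters' processing notes, and p 0.05 stands in the deposited peak names. Each peak's fold is a ratio to background that the authors' caller gave. Its −log10 p and −log10 q were deposited beside it, and other deposited columns are coordinates. Lists for H3K4me3 and H3K79me2 have the broad layout, per the deposited columns, and H3K27me3 the narrow one. Peaks were called per library. Whether the input was the control, and how duplicates and multiply matching reads were treated, was not given in the sources used here.

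Genes and promoters came from RefSeq tables of GRCh38.p14. The gene table gives no strand, so both ends of each record were examined, and starts came from the promoter table. No genome sequence or protein table was used here, so the planned protein identities were not computed. Covered shares and counts were computed with Python 3.11.15, numpy 2.4.6 and pandas 2.3.3, and the coverage code was tested on simulated data. The groups are the marks as labelled. With 1 library per mark no test was made, and shares were set beside those of all 19974 genes. Read depth is unknown from peak lists.

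Every called keratin gene is named, with uncalled ones by role, the widest peaks and longest gaps of each cluster, adjacent genes, and up to 4 leading members and 5 exceptions of each partner list. Some genes that this rule takes are not reported here. For partners, peaks inside records were named after their values were seen, as were KRT10-AS1 and the genes with most H3K27me3 nearby. The members and lists were chosen with earlier results of these data known. Alternatives were other peak thresholds, covered shares, windows, regions and joined peaks.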

Additional observations from a re-analysis of the deposited data

How the results depend on the processing

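Of 42 alternative counts of keratin genes, 25 stayed within 1.5 times the value given and 17 moved. For H3K4me3, 18 calls became 11 with fold of at least 5 and 1 at annotated starts, where 34 genes could be examined and 5 had been called. For H3K79me2, 10 calls became 0 with −log10 q of at least 5, and 0 with fold of at least 5 (3.56% in the genome). For H3K27me3, 5 calls became 3 with q at most 0.05, 1 with −log10 q of at least 5, 1 with fold of at least 5, and 2 with at least 50% covered. They became 18 with at least 1 bp covered (24.7% of all genes), 27 with 500 bp of peaks in the record and 5000 bp around it (36.0%), and 15 with peaks joined across 3000 bp (16.2%). Any peak within 5000 bp was found at 19 keratin genes for H3K4me3, 18 for H3K27me3 and 10 for H3K79me2 with q at most 0.05, and at 12, 2 and 0 with fold of at least 5. No cause beyond the construction of each alternative was tested. KRT26 was the one H3K27me3 call with fold of at least 5. No paired analysis was possible because each mark had 1 library.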

Other observations

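Keratin pseudogenes, 151 in the gene table and mostly scattered over other chromosomes, gave a further set of values. Peaks overlapped 28 of them for H3K4me3 (18.5%, against 11.7% of all 16664 pseudogenes in the table), 19 for H3K27me3 (12.6% against 15.1%) and 10 for H3K79me2 (6.62% against 16.9%). With q at most 0.05 the counts were 15 (9.93% against 8.45%), 4 (2.65% against 5.39%) and 6 (3.97% against 8.65%). Keratin pseudogenes had a median length of 1407 bp, against 707.5 bp for all, and the part of length in these shares was not tested. Pseudogenes of KRT16 overlapped H3K4me3 peaks in 5 of 6 cases, with a highest fold of 3.15, and those of KRT17 in 4 of 8, with 4.07. With q at most 0.05 these became 1 of 6 for KRT16 and 3 of 8 for KRT17. How multiply matching reads were treated was not given, which limits these values too. Pseudogenes of both families had 0 overlaps with H3K79me2. Of the 52 pseudogenes of KRT8, 5 overlapped H3K4me3, and of the 67 of KRT18, 11 did. H3K79me2 overlapped 8 pseudogenes of KRT18, and covered 100% of KRT18P12 (5.02-fold), KRT18P7 (4.92-fold) and KRT18P31 (4.92-fold), which had no H3K4me3 peak. Whether this H3K79me2 belongs to genes around these pseudogenes was not tested. KRT42P, beside KRT17, was reached by the 12.4-fold KRT17 peak over 0.642% of its record.

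Between KRT17 and EIF1, beyond the last keratin gene of chromosome 17, an H3K4me3 peak of 6834 bp and 4.92-fold held the start of the non-coding gene LOC124904004. The start of KRT86-AS2, an antisense gene within KRT86, lay in a peak of 5.29-fold, and that of LOC124904003 in the 7.05-fold KRT14 peak.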
